A study of Mus musculus with 2 samples.

Results

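Interferon response genes were chosen by name, as a list of 35 genes that interferons are known to induce, and were read from the probe sets assigned to exactly 1 of these genes. Of the 35 genes, 32 had such a probe set, with 48 probe sets in all among the 45037 of the array and 18193 named genes. The series asked which genes triptolide, a plant diterpenoid that binds the XPB subunit of the transcription factor TFIIH, affects in activated T cells. The treated sample was mouse primary T cells given anti-CD3/CD28 antibodies plus 50 ng/ml triptolide, and it was set against primary T cells that received the same antibodies alone. Both samples were purified T cells kept in culture for 18 h, each measured on 1 Affymetrix array. The labels name neither the mouse strain, nor the number of animals behind a sample, nor how long triptolide was present.

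Interferons come in families that signal through separate receptors. Type I interferons bind IFNAR1 and IFNAR2, and the kinases JAK1 and TYK2 then activate a complex with STAT2 and IRF9 that binds the interferon-stimulated response element (ISRE). Interferon gamma, which activated T cells themselves secrete, binds IFNGR1 and IFNGR2, and the signal runs through JAK1 and JAK2 to the gamma-activated site (GAS). The type I set is dominated by antiviral proteins, while interferon gamma is the classical inducer of the guanylate-binding proteins (GBP), of the immunity-related GTPases (IRG) that attack the vacuoles of intracellular pathogens, and of the machinery that cuts and loads peptides for MHC class I. IRF1, itself induced by interferon gamma, acts on many of the same promoters.

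The elements named above can be looked for in the members' promoters, and windows of 8 members that carry their letters are printed to show them. Promoters are those of RefSeq on build GRCm38.p6, from 250 bases before to 50 bases after a gene's start, and 26 of the 35 members were matched there. The ISRE core (GAAA, 2 bases of any kind and GAAA again, searched on both strands) was found in 15 of the 26 genes (57.7%), against 1079 of all 27025 genes (3.99%). The letters TTCNNNGAA (the GAS core, a palindrome) were found in 9 of the 26 (34.6%), against 9.55% of all genes. A match is a description of the letters and not a binding site. By group, the ISRE core was present in 6 of 6 GTPase genes, in 9 of 16 type I genes and in 0 of 3 antigen processing genes. The GTPase genes matched were Gbp2, Gbp3, Gbp5, Igtp, Irgm1 and Irgm2, of which Gbp5 has no ratio here. Iigp1, Gbp4, Gbp6 and Dhx58 were among the members not matched. In the lines below, ISRE and GAS letters are in capitals, and each window is written 5′ to 3′ on the gene's strand.
Igtp: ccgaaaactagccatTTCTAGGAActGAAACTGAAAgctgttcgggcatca
Irgm2: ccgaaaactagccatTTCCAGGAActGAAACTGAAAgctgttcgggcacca
Irgm1: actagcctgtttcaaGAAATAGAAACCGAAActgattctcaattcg
Gbp2: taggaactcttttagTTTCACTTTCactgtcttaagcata
Gbp3: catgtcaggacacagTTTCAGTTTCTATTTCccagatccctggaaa
Ifit1: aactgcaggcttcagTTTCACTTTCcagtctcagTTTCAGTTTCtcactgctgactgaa
Ifit3: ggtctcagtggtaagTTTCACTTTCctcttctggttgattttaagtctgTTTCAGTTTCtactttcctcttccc
Irf1: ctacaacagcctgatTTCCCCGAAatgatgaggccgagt

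The windows of the IRG genes Igtp (chr11:58199496-58199546, + strand) and Irgm2 (chr11:58214887-58214937, + strand) hold a GAS followed directly by an ISRE and are identical at 49 of 51 bases. Irgm1 (chr11:48871420-48871465, - strand) and Gbp3 (chr3:142559984-142560029, + strand) each hold a pair of overlapping ISRE matches, shown as 1 run of capitals. Gbp2 (chr3:142620589-142620628, + strand) has 1 ISRE match. Ifit1 (chr19:34640770-34640828, + strand) and Ifit3 (chr19:34583358-34583431, + strand) each have 2 separate ISRE matches, and the capitals end 76 and 113 bases before the gene's start. Irf1 (chr11:53769909-53769947, + strand) has a GAS match and no ISRE match in this window.

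All values are MAS5 signals, a linear brightness per probe set with no replicate array, so no test between the conditions was possible and no p-value is given. A signal counted as detected above a background floor of 118, the 95th percentile of chemosensory receptor probe sets, and dimmer signals were raised to the floor for log2 ratios (stimulated plus triptolide over stimulated). A gene is given by its brightest probe set unless stated otherwise. Over all 10968 detected genes the log2 ratio had a median of -0.16. The difference between 2 probe sets of 1 gene had an SD of 0.69 in log2. That corresponds to an SD of 0.49 for 1 probe set, called the probe set SD below. The share of probe sets above the floor was 42.2% on the triptolide array and 44.9% on the stimulated array. In RNA from a mixture of cells, fewer cells of a type and less RNA per cell cannot be told apart. The arrays were scaled to a common level, so each ratio is relative to the other RNA on the array. A change in RNA per cell shared by all genes would not show in these ratios. The other scalings used below also set the arrays to a common level and could not show it either.

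Markers were read to check the label. All 12 T cell markers with a probe set of their own were detected with a median log2 ratio of -0.48. Of the 12, 10 lay below 0, beside 6603 of all 10968 detected genes. At or past 2-fold lower were 4 (33.3%), beside 12.5% of all detected genes. Cd3e, above 0, had 3961.6 with triptolide and 2881.2 without, and Cd8a, the lowest, had 2416.9 with triptolide and 7326.6 without. Their summed signal was 48598 with triptolide and 70345 without. Of 8 B cell markers 6 were detected (Ighm, Cd79a, Cd79b, Cd22, Ms4a1 and Blnk). Pax5 and Cr2 were under the floor on both arrays. The list summed to 3301 with triptolide and 5217 without, of which Ighm had 1805.1 with triptolide and 3481.9 without. Cd79a, the only one with a ratio above 0, had 673.7 with triptolide and 349.3 without. Of 9 myeloid markers 5 were detected, with a sum of 1239 with triptolide and 1224 without. Csf1r, Adgre1 and Cd68 were above the floor on both arrays, Lyz2 only with triptolide and Mpeg1 only without. Cd14, Fcgr1, Cybb and Itgam were under the floor. Of 9 dendritic cell markers 5 were detected and Siglech, Flt3, Itgax and Xcr1 were under the floor. Irf8, which activated T cells express too, made up most of that list's sum of 4744 with triptolide and 10130 without. Bst2, which is on that list and is itself an interferon response gene read here, had 1567.8 with triptolide and 1618.0 without. Of 5 natural killer cell markers 3 were detected (Eomes, Klrk1 and Klre1), and Ncr1 and Klra8 were under the floor. The list summed to 1782 with triptolide and 1829 without, most of it Eomes (1380.4 with triptolide and 1380.5 without). The part of these cells in the values below was not tested.

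With triptolide, 24 of the 27 detected interferon response genes lay within 2-fold of their signal in cells stimulated alone. The RNA sensor gene Dhx58 was at least 3.36-fold lower and Ifit3 at least 2.19-fold lower, while the GTPase gene Iigp1 was 2.01-fold higher. The median log2 ratio of the 27 was -0.05 as deposited and 0.14 under median scaling of the arrays, so it has no settled sign, and 4 of the ratios are bounds because 1 side was under the floor. Thus 7.41% of the detected members lay at or past 2-fold lower, beside 12.5% of all detected genes, and 3.70% lay at or past 2-fold higher, beside 5.63%. Of the 27 ratios, 14 (51.9%) lay within 1 probe set SD of the all-gene median, as did 53.2% of all genes. These shares are close to the background of all genes. Of the other members, Mx1, Mx2, Oas2, Oasl2 and Cmpk2 were under the floor on both arrays. Isg15 and Gbp4 were represented by probe sets that are shared with other genes, and Gbp5 is not named in the annotation used here.

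**Figure D1:**
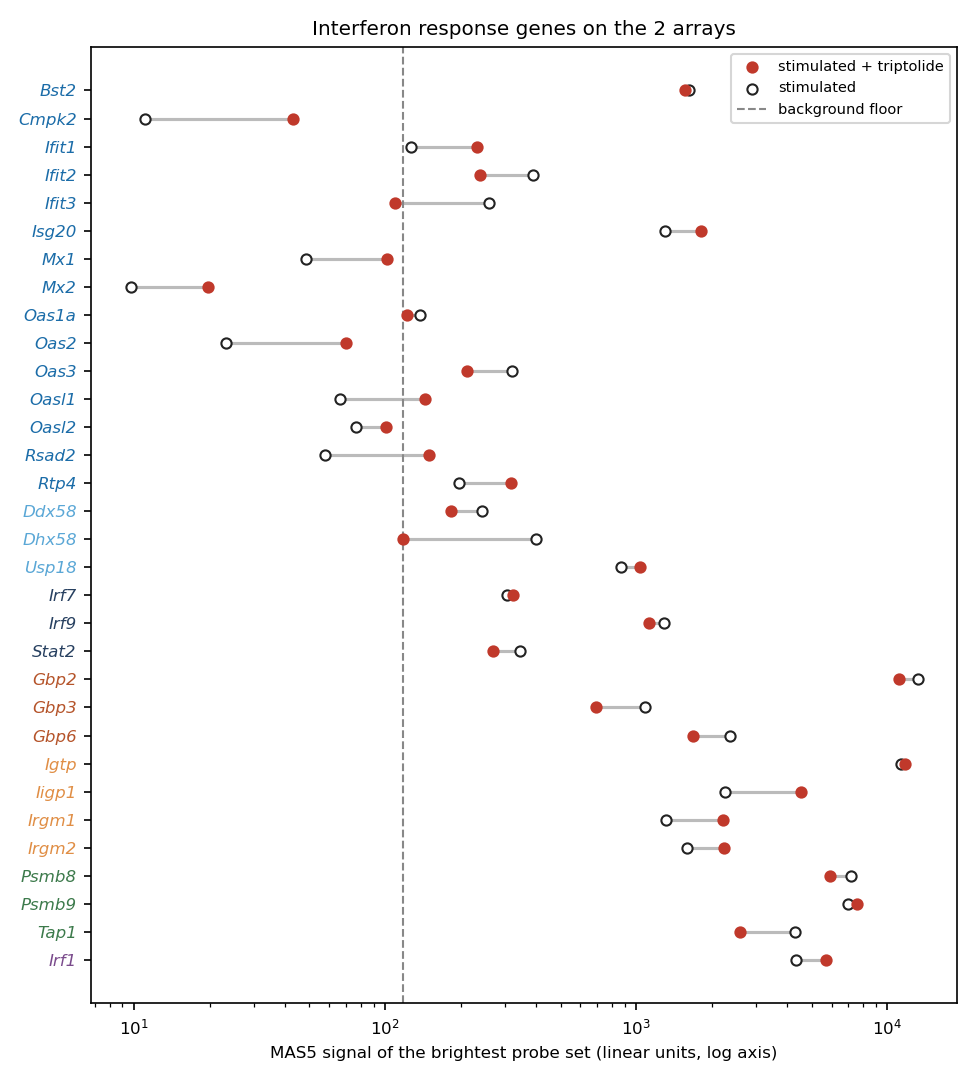
MAS5 signal (log axis) of the brightest probe set of each of 32 interferon response genes on the stimulated plus triptolide array (filled) and the stimulated array (open), with the background floor of 118 dashed. Most type I genes sit within a few fold of the floor or under it, while the GTPase and antigen processing genes lie well above it on both arrays.

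Type I effector genes did not share a direction, with 5 of 10 detected genes above 0 and 5 below. Ifit1, Ifit2 and Ifit3 encode related proteins that bind foreign RNA. Ifit1 had a signal of 233.0 with triptolide, against 126.3 without, a log2 ratio of 0.88. Its neighbours on chromosome 19 lay on the other side of 0: Ifit2 had 238.8 with triptolide and 388.3 without (log2 ratio -0.70), and Ifit3 had 110.0, under the floor, with triptolide and 258.7 without. All 3 genes were dim, and only Ifit3 passed the 2-fold rule.

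The oligoadenylate synthetase family makes the messenger that switches on RNase L. Oas3 had 212.8 with triptolide and 320.0 without, a log2 ratio of -0.59. Oas1a had 122.7 with triptolide and 138.2 without, and its log2 ratio of -0.17 turned to 0.01 under median scaling of the arrays. Oasl1, an Oas-like gene without that enzyme activity in mouse, was above the floor only with triptolide, at 144.2, against 66.4 without (at least 1.22-fold higher). Oas2 was under the floor on both arrays, with 69.8 with triptolide and 23.2 without.

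A few type I effectors lay well above the floor on both arrays and were within 2-fold. Bst2, which encodes tetherin, the protein that holds budding virions at the cell surface, had 1567.8 with triptolide and 1618.0 without. The exonuclease gene Isg20 had 1817.7 with triptolide and 1302.4 without, a log2 ratio of 0.48. The log2 ratio of Bst2 was -0.05 as deposited and lay above 0 under median scaling and quantile normalization (0.14 and 0.15). Rtp4, a chaperone of membrane receptors induced by type I interferon, had 316.7 with triptolide and 197.0 without (log2 ratio 0.68), and its second probe set was under the floor on both arrays. Rsad2, which encodes the antiviral enzyme viperin, was above the floor only with triptolide and on 1 of 3 probe sets, at 150.1 against 57.7 without. The dynamin-like antiviral genes Mx1 (102.2 with triptolide and 48.5 without) and Mx2 (19.8 with triptolide and 9.7 without), the nucleotide kinase gene Cmpk2 and Oasl2 had no fold, since both sides were under the floor.

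Of the RNA sensor genes among the members, Dhx58 passed the 2-fold rule and Ddx58 did not. Dhx58, which encodes LGP2, a helicase that tunes the RIG-I-like receptors, had a signal of 117.6 with triptolide, just under the floor, and 397.8 without. A second Dhx58 probe set had 53.2 with triptolide and 196.9 without (at least 1.66-fold lower), and its last one was under the floor on both arrays. Both detected probe sets thus pointed the same way, and Dhx58 had the lowest ratio among the 27 members. Ddx58, which encodes RIG-I, had 183.2 with triptolide and 244.1 without on 1 probe set (log2 ratio -0.41), and its other probe sets were under the floor. Usp18, which removes ISG15 from proteins and blocks IFNAR2 signalling, had 1037.4 with triptolide and 868.9 without (log2 ratio 0.26).

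The transcription factors of the type I response lay close to 0. Irf7, the factor that amplifies interferon alpha production, had 323.7 with triptolide and 304.9 without. Irf9, the DNA-binding part of the complex on the ISRE, had 1129.8 with triptolide and 1287.1 without. Its log2 ratio of -0.19 was -0.0066 under median scaling and 0.0045 under quantile normalization. Stat2 had 268.2 with triptolide and 346.1 without, and its 2 probe sets gave log2 ratios of -0.37 and -0.07. None of these 3 genes was farther than 1 probe set SD from the all-gene median. Over the whole type I group, 16 of 21 genes with a probe set were detected, with a median log2 ratio of -0.11 (0.07 under median scaling), and 2 (12.5%) passed the 2-fold rule downwards, the same share as of all genes, and 0 upwards. Irf1, which both interferon families induce and which the antigen receptor also induces in T cells, had 5679.2 with triptolide and 4332.8 without (log2 ratio 0.39).

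**Figure D2:**
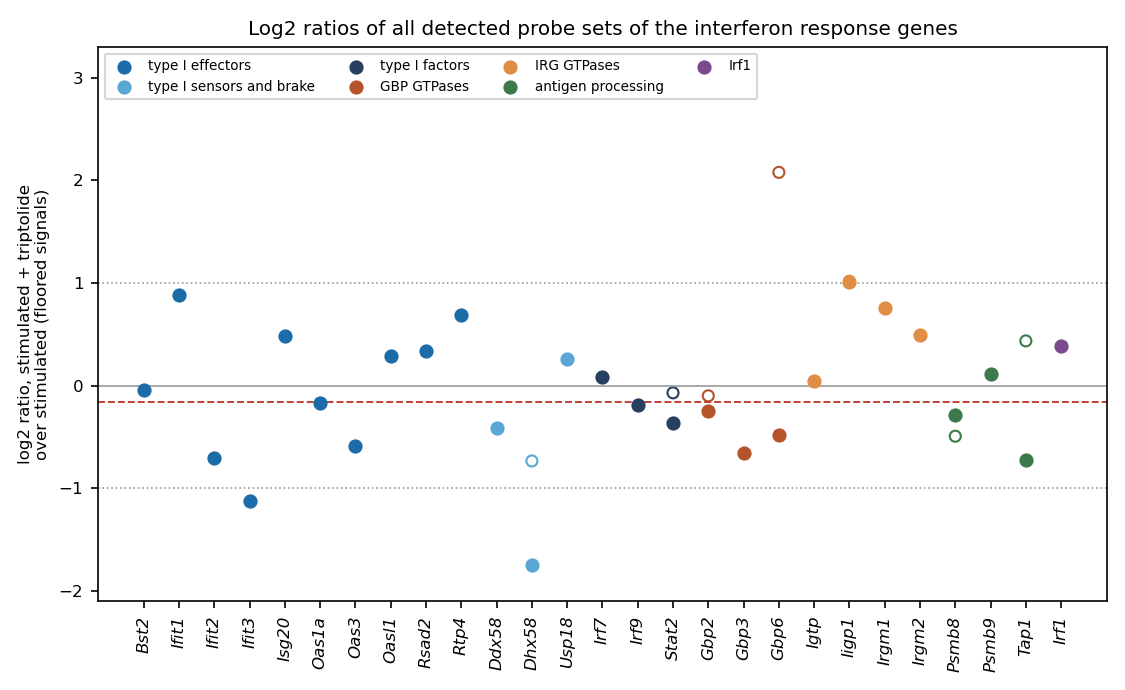
Log2 ratio (stimulated plus triptolide over stimulated, floored signals) of every probe set of the members above the floor on at least 1 array, with the brightest probe set of a gene filled and its other probe sets open. Dotted lines mark 2-fold and the dashed line the all-gene median of -0.16; the 4 IRG genes lie above 0, the brightest probe sets of the 3 GBP genes below it, and the 2 probe sets of Gbp6 are far apart.

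The IRG genes had ratios above 0 in 4 of 4 cases, beside 4363 of all 10968 detected genes. Iigp1, an effector GTPase loaded onto pathogen vacuoles, had 4544.3 with triptolide and 2262.1 without, and its second probe set had 2188.5 with triptolide and 1080.4 without. The 2 probe sets gave log2 ratios of 1.01 and 1.02. Irgm1, a regulatory IRG that guards the cell's own membranes, had 2225.3 with triptolide and 1319.6 without (log2 ratio 0.75). Irgm2, another regulatory member, had 2244.1 with triptolide and 1595.2 without (0.49). Igtp, also called Irgm3, had 11758.1 with triptolide and 11387.9 without (0.05). The median of the 4 genes was 0.62, beside -0.16 for all detected genes, and the 4 ratios stayed above 0 as deposited, under housekeeping scaling, under median scaling and under quantile normalization. Iigp1 was at 2.01-fold only just past the 2-fold rule, and its log2 ratio was 0.98 under housekeeping scaling.

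The GBP genes, which encode large GTPases that coat and lyse intracellular pathogens, lay below 0 on their brightest probe sets. Gbp2 had 11132.2 with triptolide and 13209.6 without, and its 2 probe sets gave log2 ratios of -0.25 and -0.10. Gbp3 had 691.7 with triptolide and 1088.3 without (log2 ratio -0.65). The ratios of Gbp2 and Gbp3 lay below 0 under the 4 scalings. For Gbp6 the 2 probe sets disagreed. One had 1683.0 with triptolide and 2355.2 without (log2 ratio -0.48), and the other had 3408.7 with triptolide and 807.1 without (2.08, or 4.22-fold higher), so no direction is given for Gbp6. GBP genes are close copies of one another, and probes may read more than 1 of them. The 7 detected GTPase genes had a median log2 ratio of 0.05. Of them, 1 (14.3%) passed the 2-fold rule upwards and 0 downwards, beside 5.63% and 12.5% of all detected genes.

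Antigen processing genes lay well above the floor on both arrays and differed by less than 2-fold between the arrays, with a median log2 ratio of -0.28 over the 3 genes (-0.10 under median scaling). The immunoproteasome subunits Psmb8 and Psmb9 replace their standard counterparts Psmb5 and Psmb6 and change which peptide bonds are cut. Psmb8 had 5905.1 with triptolide and 7178.5 without (log2 ratio -0.28), and a second, dim probe set had 85.9 with triptolide and 166.6 without. Psmb9 had 7586.8 with triptolide and 6999.4 without (0.12). Tap1, a subunit of the peptide transporter into the endoplasmic reticulum, had 2590.3 with triptolide and 4289.2 without (-0.73) on its bright probe set, and 249.9 with triptolide and 184.7 without (0.44) on a dim one. The bright probe set of Tap1 lay 0.57 below the all-gene median, a little more than 1 probe set SD.

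**Figure D3:**
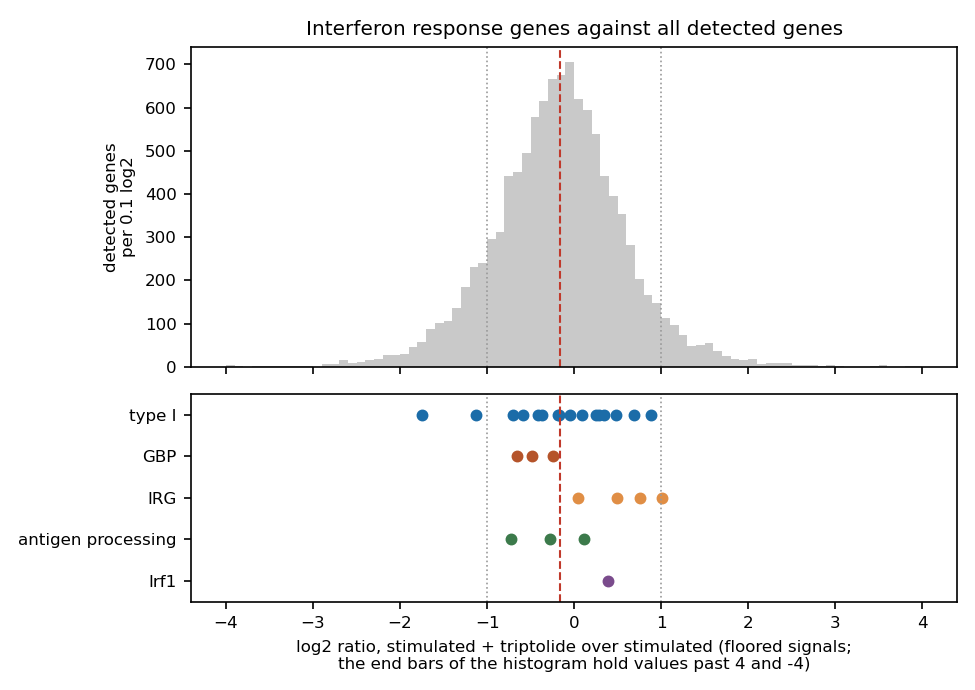
Upper panel, number of detected genes per 0.1 log2 ratio for all 10968 detected genes; lower panel, the 27 detected interferon response genes by group, 1 point per gene, on the same axis. Dotted lines mark 2-fold and the dashed line the all-gene median; 24 of the 27 members lie between the dotted lines.

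Upstream of these genes, the ligand gene Ifng and both chains of its receptor were at least 2-fold lower with triptolide. Of the interferon genes that could be read, Ifng was the only one above the floor, with 471.7 with triptolide and 2124.2 without (4.50-fold lower). The interferon alpha and beta genes read here were under the floor on both arrays, Ifnb1 with 111.9 with triptolide and 99.6 without. Ifngr1, the ligand-binding chain of the interferon gamma receptor, had 908.7 with triptolide and 2148.2 without (log2 ratio -1.24). Ifngr2, its signalling partner, had 284.6 with triptolide and 867.2 without (-1.61), with a second probe set at -1.05. Both chains of that receptor were at least 2-fold lower on every detected probe set.

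The type I receptor and the kinases were less uniform. Ifnar2 had 273.0 with triptolide and 1007.8 without (-1.88) on its brightest probe set, but 427.3 with triptolide and 289.0 without (0.56) on another, so no direction is given. Ifnar1 had 837.0 with triptolide and 804.5 without, and its second probe set had a log2 ratio of -0.59. Jak2 had 1570.0 with triptolide and 2602.0 without (-0.73, with -1.12 on a second probe set), while Jak1 had 8619.3 with triptolide and 7280.3 without (0.24). For Tyk2 the brightest probe set gave 0.65 and a dim one -0.77. By brightest probe sets 3 of the 7 receptor and kinase genes (Ifngr1, Ifngr2 and, against its other probe set, Ifnar2) were at least 2-fold lower and 0 higher, beside 12.5% and 5.63% of all genes.

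Inhibitors of the pathway went both ways, with 2 of 8 detected genes (25%) at least 2-fold lower, beside 12.5% of all detected genes. These were the tyrosine phosphatase genes Ptpn6 (1261.1 with triptolide and 4201.8 without, log2 ratio -1.74) and Ptpn2 (2192.1 with triptolide and 6074.7 without, -1.47), whose products dephosphorylate JAK kinases. All 3 detected probe sets of Ptpn2 were at least 2-fold lower, while the second probe set of Ptpn6 had a log2 ratio of -0.74. The RNA-editing gene Adar and Ifi35 had the highest ratios of that list, at 0.71 and 0.65. Other factors numbered 8 detected genes, of which Irf8 was at least 2-fold lower on both probe sets (2726.2 with triptolide and 7786.9 without on the brightest, -1.51). Stat3 followed at -0.53, and Irf3 and Nmi were highest at 0.49 and 0.40. The other detected probe sets of Irf3 were at -0.10, -0.07 and -0.07, so no direction is given for Irf3. Of the sensors and adaptors, Myd88, the adaptor of most Toll-like receptors, had 3567.2 with triptolide and 1004.3 without (3.55-fold higher), and Mavs, the mitochondrial adaptor of RIG-I, had 196.7 with triptolide and 561.6 without (-1.51, and -2.72 on its second probe set). The RNA-activated kinase gene Eif2ak2 was at 0.92 (0.82 and -0.34 on its other detected probe sets) and the nucleic acid sensor gene Zbp1 at -0.84 (0.21 on another), so no direction is given for them. Ifih1, which encodes the RNA sensor MDA5, had 244.6 with triptolide and 140.0 without (0.80).

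Further interferon-induced genes outside the 35 were read too. The 33 detected genes had a median log2 ratio of -0.10, with 4 at least 2-fold higher and 6 lower by that rule. The ADP-ribosyltransferase gene Parp14 had 2989.4 with triptolide and 815.8 without (1.87), and Lgals3bp had 1599.6 with triptolide and 470.8 without (1.76). Trim21 and Trim34a followed at 1.19 and 1.18, with a second Trim21 probe set at 0.08. Samd9l had 237.0 with triptolide and 843.9 without (-1.83), and the chemokine gene Cxcl10, a classical interferon gamma target, had 181.7 with triptolide and 581.0 without (-1.68). Among other GTPases of both families, 1 of 4 detected genes was at least 2-fold higher. It was Gbp8, with 2426.9 with triptolide and 938.5 without (1.37). The IRG-like gene Gm4951, under the floor without triptolide, followed at 0.91 or more, then Ifi47 at 0.23 and Gbp7 at -0.54. Over all 87 detected genes of the pathway lists outside the members, 9 (10.3%) passed the 2-fold rule upwards and 15 (17.2%) downwards, beside 5.63% and 12.5% of all detected genes, and the median was 0.06. Of the 87 genes, 81 were above the floor on both arrays, beside 8677 of all 10968. Among all genes with a brighter signal of at least 4 floors the shares were 6.86% and 15.8%. The counts of the pathway lists were not repeated under other scalings, so no excess over all genes is read from them.

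Other genes of the class I pathway were read beside Tap1, Psmb8 and Psmb9. The 14 detected genes had a median of 0.20. Of them, 3 (21.4%) were at least 2-fold higher and 1 (7.14%) lower by that rule, beside 5.63% and 12.5% of all detected genes. Highest were Calr, a chaperone of peptide loading, and Tapbp, which encodes tapasin, while the chaperone genes Canx and Pdia3 were both at 0.14. Calr had 13276.6 with triptolide and 5474.5 without (1.28, and 1.41 and 1.45 on its other probe sets), and Tapbp had 11885.8 with triptolide and 5193.7 without (1.19, and 1.60 on a second). The tapasin-like gene Tapbpl was at 1.01, only just past the 2-fold rule. Its second probe set was dim, with 129.8 with triptolide and 18.9 without (at least 1.10-fold higher). Tap2, the partner of Tap1, had 1414.3 with triptolide and 887.7 without (0.67). The light chain gene B2m had 38904.5 with triptolide and 33615.8 without (0.21). Of the proteasome genes, Psmb10, the remaining immunoproteasome subunit, had 1127.7 with triptolide and 1673.7 without (-0.57), and the activator subunit gene Psme1 had 7710.9 with triptolide and 12349.1 without (-0.68). The standard subunits Psmb5, Psmb6 and Psmb7 had log2 ratios of 0.25, 0.11 and -0.10. The lowest gene of the list was H2-M3, a class I molecule that presents formylated peptides, with 659.6 with triptolide and 1575.7 without (-1.26).

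**Figure D4:**
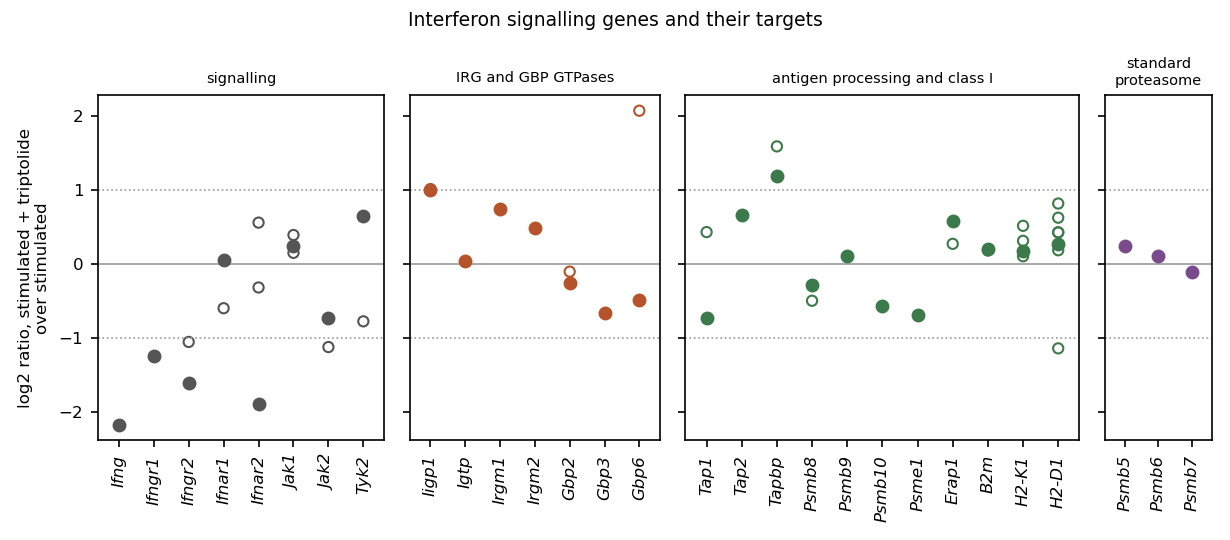
Log2 ratio (stimulated plus triptolide over stimulated) of detected probe sets of signalling genes, GTPase genes, antigen processing and class I genes, and standard proteasome subunits, with brightest probe sets filled and others open. Ifng, Ifngr1 and Ifngr2 lie below the lower 2-fold line on all their probe sets, whereas the standard proteasome subunits lie near 0.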

How the data were processed

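Biotin-labelled RNA was read on Affymetrix arrays, 1 per condition, and the conditions were taken from the samples' source names. The values the authors deposited are linear signal intensities made with MAS5 (per the submitters' processing notes; version and settings not given in the sources used here). Both arrays had a 2% trimmed mean of 2000 over the 100 probe sets listed first, and of 340 with triptolide and 383 without over all probe sets, so levels rest on how the arrays were scaled. Names came from the platform annotation (34945 with 1 gene symbol, 932 with several, 9160 with none), and 34741 probe sets were matched by Entrez number to the RefSeq table of GRCm38.p6. A gene's brightest probe set has the highest mean log2 of floored signals. The floor came from 87 receptor probe sets. A fold with 1 side at the floor is written "at least". The calculation (Python 3.11.15, numpy 2.4.6, pandas 2.3.3) was tested on simulated data. Members and lists were chosen with earlier results of these data known. Named were all members, the 2 highest and 2 lowest detected genes of each pathway list, and a fixed set of ligand, receptor, kinase, class I and proteasome genes; probe sets not assigned to 1 gene were not used here. Markers given by name, Trim21, Trim34a, Tapbpl, Canx, Pdia3 and Ifih1 were named after their values were seen. Settings varied were the scaling (3 others), the floor (2 others, or none), a pseudocount equal to the floor, other probe set choices, brighter genes only and a 1.5-fold rule.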

Additional observations from a re-analysis of the deposited data

How the results depend on the processing

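No paired analysis was possible because each condition has 1 array. Under 11 alternatives, medians of the members and of their 3 groups moved by less than 1 probe set SD. That SD is larger than each of these medians as deposited, so a median could change sign within it. The GTPase median went from 0.05 to 0.49 with the median over probe sets. The type I median went from -0.11 to 0.16 with a floor at 0.5 of its value. No member at least 2-fold apart changed direction, and the signs of Bst2, Irf9 and Oas1a depended on the scaling. Median scaling raised the triptolide array by 0.18 in log2, and the lower share of all 2-fold differences was 68.9% as deposited, 70.8% under housekeeping scaling, 53.3% under median scaling and 51.0% under quantile normalization. The cause of the following changes was not tested. Detected members numbered 27 as deposited, 31 with a floor at 0.5 of its value, 23 with a floor at 2 times its value and 15 among the brighter genes. At least 2-fold higher members numbered 1 as deposited, 0 under housekeeping scaling and 2 under quantile normalization, beside 5.63%, 5.38% and 8.10% of all detected genes. They numbered 3 with a floor at 0.5 of its value and 0 with a pseudocount, beside 7.44% and 4.36%. With no floor they numbered 3, and by the 1.5-fold rule 4. At least 2-fold lower members numbered 2 as deposited, 1 under median scaling and 1 under quantile normalization, beside 12.5%, 8.90% and 8.42% of all detected genes. They numbered 0 with a floor at 2 times its value and 1 with a pseudocount, beside 11.8% and 8.94%. With the median over probe sets 1 was lower, beside 8.24%. Among genes with a brighter signal of at least 4 floors 0 were lower, beside 15.8%, and by the 1.5-fold rule 6 were. All lower members by the 2-fold rule were type I genes, whose lower counts changed alike except for 4 by the 1.5-fold rule. Higher type I genes numbered 0 as deposited, 1 under quantile normalization, 2 with a floor at 0.5 of its value, 2 with no floor and 2 by the 1.5-fold rule. Higher GTPase genes numbered 1 as deposited, 0 under housekeeping scaling, 0 with a pseudocount and 2 by the 1.5-fold rule, which also counted 1 lower GTPase gene and 1 lower antigen processing gene. Of all detected genes, 9.97% were higher and 18.3% lower by the 2-fold rule with no floor, and 13.4% and 26.9% by the 1.5-fold rule. Both lower type I genes had their signal with triptolide under the floor, so signal over background limits their folds.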
